A study of Mus musculus with 12 samples.

Results

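The sites described here are mouse poly(A) sites whose canonical polyadenylation signal, AATAAA, was listed unusually far away, at 61 to 100 nt. A site is a cluster of RNA 3′ ends, and the distance is that of the listed signal in nt. There were 2241 such sites of the 145179 clusters in the deposited catalogue, or 3.44% of the 65222 AATAAA clusters outside the mitochondrial chromosome. They were separated by one property. In 1265 of them another AATAAA cluster lay on the same strand within 100 nt upstream, counted between cluster edges, and that nearest cluster is called the partner. The other 976 had no partner.

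Cleavage and polyadenylation factors recognise AATAAA in the nascent RNA, in which the T is a U, and cut a short way downstream of it, usually close to a U-rich or GU-rich element. The position of the cut can vary, so a single signal can give several ends, and neighbouring signals can each give their own. RNA folding between the signal and the cut can bring a distant signal close in space, and such long spacings have been described at some mammalian poly(A) sites.

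The cells were mouse embryonic stem cells derived from the V6.5 line, as clones with a conditional knockout of Exosc3, a core subunit of the RNA exosome, which degrades many nuclear RNAs from their 3′ ends. The 12 libraries formed 6 groups of 2. Cells were without doxycycline (dox-, Exosc3-) or with 0.1 μg/ml of it (dox+, Exosc3+) for 3 days, or without or with it for 2 days and given 15 μM of a U1 AMO or, in its place, a Scr AMO for the last 8 hours. An AMO is an antisense morpholino oligonucleotide, and U1 snRNP, besides marking 5′ splice sites, protects transcripts from premature polyadenylation. RNA ends were read by 2P-seq, in which sequencing starts at the poly(A) tail. The catalogue had 7 columns, of which 0 held a value per library, so depth is unknown and no site could be compared between the groups. No library replicates stand behind any value below. Intervals are 95% Wilson intervals over sites and cover counting error only. Differences were taken on each of the 19 autosomes and tested by 2-sided sign flips, a permutation test. Its p tells how evenly a difference held along the genome, and says nothing of how it would come out in other cultures.

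A partner was present for 56.4% of the 2241 (interval 54.4 to 58.5%). On single autosomes this share lay between 47.3% on chromosome 2 and 63.7% on chromosome 9, with a mean of 56.9% ± 4.10 (SD, n = 19). The 2241 sites fell evenly on both strands, with 1111 on plus and 1130 on minus. With a partner there were 659 on plus and 606 on minus, and without one 452 on plus and 524 on minus. The 2241 sites made up 3.45% ± 0.328 of AATAAA clusters (SD over 19 autosomes), from 2.91% on chromosome 13 to 4.19% on chromosome 18. The X chromosome held 80 of them, and 7 lay on other contigs. Around the lower limit of distance the counts did not step, with 71 AATAAA clusters at 60 nt, 70 at 61 nt and 71 at 62 nt, of which 26 at 60 nt and 20 at 61 nt had a partner. The upper limit of 100 nt, with 43 clusters, was the largest distance in the catalogue. The limit on the partner gap fell in a sparse range, with 1 site whose partner was 91 to 100 nt away and a limit of 150 nt would have added 7 sites.

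The distances of the sites with and without a partner ran in opposite ways. Without a partner there were 35.1 sites per nt at 61 to 70 nt, 25.2 at 71 to 80 nt, 20.2 at 81 to 90 nt and 17.1 at 91 to 100 nt. This continued the fall of the nearer AATAAA clusters without a partner, which numbered 313.3 per nt at 31 to 40 nt, 91.9 at 41 to 50 nt and 49.4 at 51 to 60 nt. With a partner the counts were 26.7, 31.4, 33.3 and 35.1 per nt over the same 4 steps from 61 to 100 nt, and 8.30, 6.40 and 14.5 per nt over the 3 steps from 31 to 60 nt. The median distance was 82 nt with a partner (quartiles 72 and 91 nt) and 76 nt without (quartiles 67 and 87 nt).

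**Figure D1:**
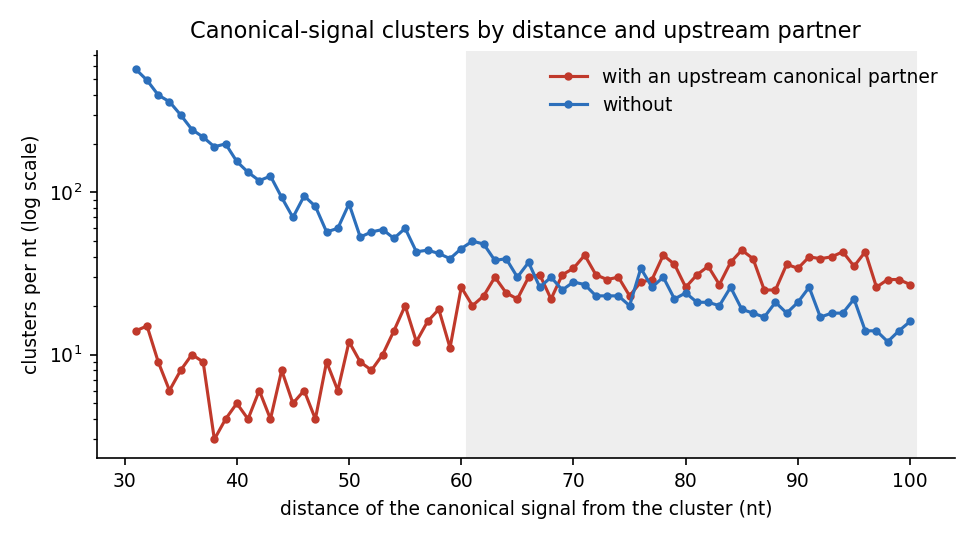
Number of clusters with the canonical signal at each distance in nt from 31 to 100 (log scale), with (red) and without (blue) another such cluster within 100 nt upstream on the same strand; the grey field marks 61 to 100 nt. Clusters without a partner fall to 17.1 per nt at 91 to 100 nt, while those with one climb to 35.1 per nt there.

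The share with a partner depended on distance. It was 43.2% at 61 to 70 nt with an interval of 39.4 to 47.1%, and it reached 55.5% (interval 51.4 to 59.5%) in the next step, at 71 to 80 nt. It was 62.2% (interval 58.1 to 66.2%) for distances of 81 to 90 nt and 67.2% (interval 63.1 to 71.1%) for the last 10 nt. AATAAA clusters at 15 to 30 nt, the usual range, had such a partner in 2.87% of 51959 cases (interval 2.73 to 3.02%). The sites were chosen by distance and split by partner. A signal at 15 to 30 nt also leaves little room between it and the site for a cluster that shares it. The 2 shares are therefore a description, with a difference of 54.1 percentage points over autosomes (SD 4.11, n = 19), positive on all 19. For ATTAAA, the most frequent variant of the signal, 44.4% of 1236 clusters at 61 to 100 nt had an ATTAAA cluster within 100 nt upstream (interval 41.7 to 47.2%). AATAAA exceeded ATTAAA by 12.7 percentage points ± 9.01 over autosomes, on 18 of 19 (adjusted p = 0.000168, permutation test). The catalogue held 65222 AATAAA clusters and 22394 ATTAAA clusters outside the mitochondrial chromosome. At 15 to 30 nt the ATTAAA share was 1.91% of 18655 clusters (interval 1.72 to 2.11%), against 2.87% for AATAAA. Whether the difference followed how common each signal was, was not tested. At 61 to 70 nt the shares of the 2 signals were 43.2% for AATAAA and 43.9% for ATTAAA. At 91 to 100 nt they were 67.2% for AATAAA and 38.8% for ATTAAA (interval 33.8 to 44.0%). For ATTAAA the first 2 distances of that step stood low, with a partner for 10 of 51 clusters at 91 nt and for 16 of 73 at 92 nt. At 93 to 100 nt, a range chosen after these values were seen, it was 48.7% of 224 (interval 42.2 to 55.2%), and that of AATAAA was 68.0% of 400. Within 61 to 80 nt the difference over autosomes was 3.48 percentage points (adjusted p = 0.273, permutation test).

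**Figure D2:**
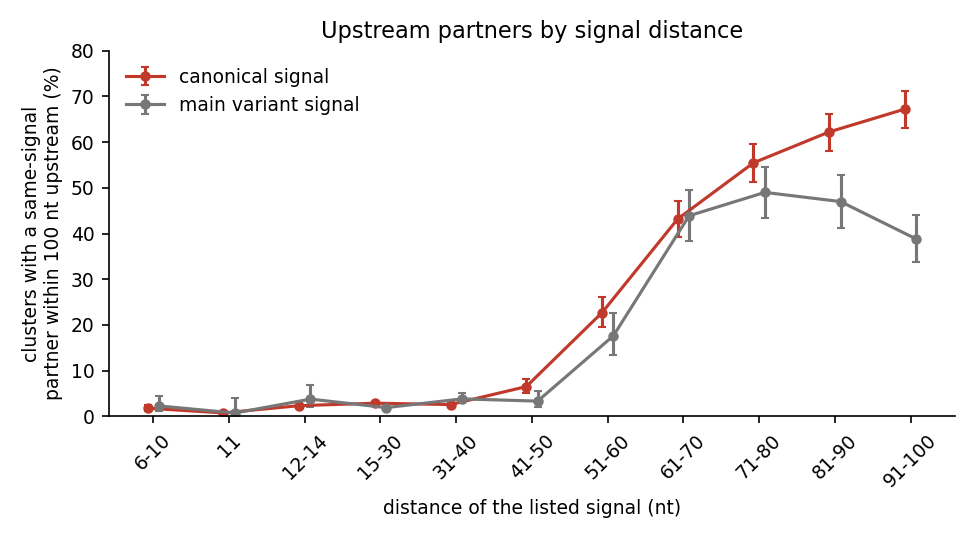
Share of clusters, in percent, with another cluster of the same signal within 100 nt upstream on the same strand, by the distance of the listed signal in nt, for the canonical signal (red) and its main variant (grey), with 95% Wilson intervals as bars. Both stay under 10% up to 50 nt, and from 61 to 100 nt the canonical signal climbs to 67.2% while the variant stands at 38.8% in the last step, with 19.6% at 91 nt, 21.9% at 92 nt and 48.7% at 93 to 100 nt.

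The listed signal of nearly every site with a partner could be the partner's own. Distances may have been counted from either edge or from a point inside the cluster, which is not given in the sources used here. Each signal was therefore placed within the span that the cluster's edges allow. In 1255 of 1265 pairs the spans of site and partner overlapped, which is 99.2% (interval 98.6 to 99.6%). The comparison set was 1217 pairs of neighbouring AATAAA clusters, also at most 100 nt apart, in which both were at 15 to 30 nt. There the spans overlapped in 16 pairs, or 1.31% (interval 0.811 to 2.12%). The choice of both distances limits overlap in that set to closely spaced or wide clusters, so the 2 shares are given side by side as a description. Wide clusters give wide spans. Where both clusters were at most 10 nt wide, the spans overlapped in 180 of 181 pairs with a distant signal and in 13 of 241 pairs with a signal each. With both at most 3 nt wide these were 28 of 29 pairs and 8 of 44, and with both 1 nt wide 11 of 12 and 3 of 8. In the other 10 pairs the spans did not overlap, and in 7 of these the site's signal lay downstream of the partner.

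Pairs in which both clusters were 1 nt wide leave no span and show the arithmetic directly. They are shown for that reason and were chosen after their values were seen. On the plus strand of chromosome 15 (mm9) a site at position 8078550 had AATAAA at 62 nt, and its partner at 8078508 had it at 20 nt, so both the positions and the distances were 42 nt apart. On the plus strand of chromosome 17 a site at 88949617 had the signal at 75 nt and its partner at 88949562 had it at 20 nt, 55 nt apart in both. On the minus strand of chromosome 8 a site at 96546520 had it at 64 nt and its partner at 96546560 had it at 24 nt, 40 nt apart in both. In 11 of the 12 such pairs the 2 listed signals fell on the same base. In the remaining pair, on the minus strand of chromosome 7, the site at 106656541 was listed at 79 nt and its partner at 106656617 at 7 nt, which placed their signals 4 nt apart.

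With a fixed reference point the signals coincided less exactly. With distances counted from cluster midpoints, 36.8% of the 1265 pairs had their signals within 3 nt of each other (interval 34.2 to 39.5%) and the median absolute difference was 5 nt. In the pairs with a signal each these were 0.986% (interval 0.565 to 1.72%) and 73.5 nt. Counted from 3′ edges the share within 3 nt was 26.3% (interval 24.0 to 28.8%), and from 5′ edges 31.6%.

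**Figure D3:**
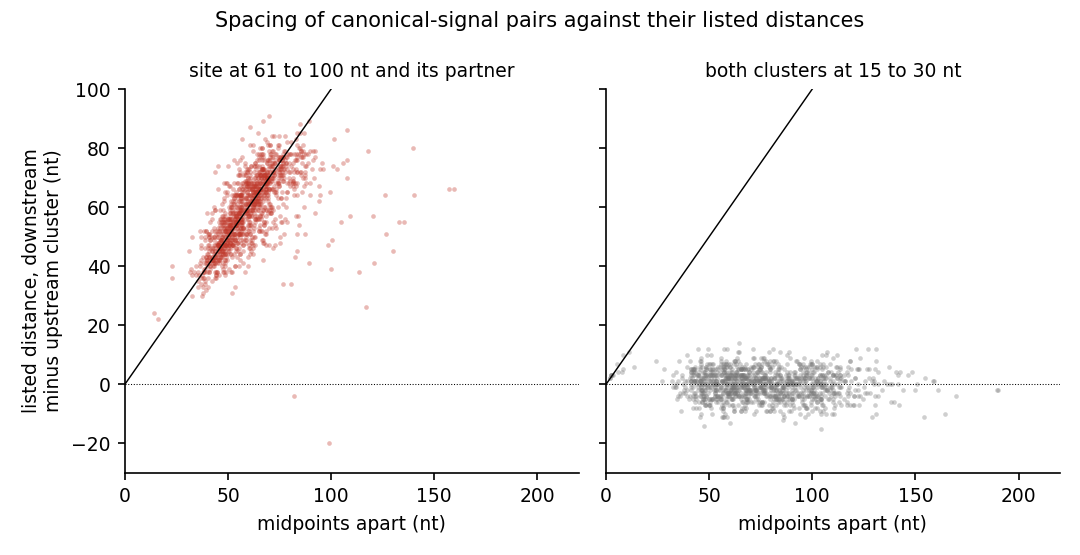
Difference in listed distance (nt, downstream minus upstream cluster) against the separation of cluster midpoints (nt), one point per pair, for 1265 sites at 61 to 100 nt with their partners (left) and for 1217 pairs with both signals at 15 to 30 nt (right). The solid line marks equal values, and 76.8% of the points on the left lie within 10 nt of it, against 1.15% of those on the right, where the choice of both distances keeps the difference near 0; one pair at 742.5 nt lies outside the right panel.

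The partners themselves had the signal at the usual place. The distance of the partners also had a median of 21 nt (quartiles 19 and 25 nt). Of the 1265 partners, 1068 (84.4%) had it at 15 to 30 nt, 87 at 6 to 14 nt, 106 at 31 to 60 nt and 4 at 61 to 100 nt. Each of the 1265 sites had a partner of its own, which follows from the definition. Sites are AATAAA clusters themselves and the partner is the nearest such cluster upstream, so sites could not share a partner. The gap between partner and site had a median of 40 nt (quartiles 32 and 50 nt) and was 26 to 60 nt in 1076 pairs (85.1%) and 25 nt or less in 79. The site's listed distance exceeded that of its partner by a median of 59 nt (quartiles 50 and 68 nt). The choice of sites at 61 to 100 nt bounds this step, and it bounds the gap where the signal is the partner's. In the pairs with a signal each, which lack that bound, the gap had a median of 55 nt (quartiles 39 and 76 nt).

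No cluster of another kind lay between a distant site and its partner. This was 0 of 1265 pairs, which allows a share of up to 0.237%. An AATAAA cluster in between would itself be the partner, so only clusters listed otherwise could count. In nearly all pairs the site's AATAAA could also lie within 100 nt upstream of any such cluster. The way signals are listed may thus leave little room for one, and the counts are given as a description. Among the 1493 AATAAA clusters at 15 to 30 nt with an AATAAA cluster within 100 nt upstream, 7 (0.469%, interval 0.227 to 0.965%) had one in between. In 19 of the 1265 sites more than 1 AATAAA cluster lay within 100 nt upstream, and in 5 the signal could be that of 2 or more of them.

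The distant site was usually the narrower of the pair. Site and partner had median widths of 10 and 20 nt. The partner was wider in 861 of 1265 pairs (68.1%, interval 65.4 to 70.6%), the site in 369, and 35 were equal. In the pairs with a signal each the upstream cluster was wider in 573 of 1217 (47.1%, interval 44.3 to 49.9%) and the downstream cluster in 587, with medians of 14 nt upstream and 15 nt downstream. Over autosomes the share with the wider cluster upstream was 21.3 percentage points ± 9.37 higher in the pairs with a distant signal, on 19 of 19 (adjusted p = 1.5e-05, permutation test). On the log2 scale the mean width of the downstream cluster was lower for the distant sites than in the pairs with a signal each (difference -0.64 ± 0.30), again on 19 of 19 (adjusted p = 1.5e-05, permutation test). The choice of sites at 61 to 100 nt may also limit cluster widths where the signal is the partner's. The pairs with a signal each lack that limit, so these tests cannot separate it from other differences in width. The difference in downstream width was -0.89 at 61 to 80 nt and -0.42 at 81 to 100 nt. The difference in the share with the wider cluster upstream was 20.1 and 21.8 percentage points over the same ranges. Reads per cluster were not in the catalogue, and whether width followed the number of reads was not tested.

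Sites without a partner spread to both ends of the width range. Clusters 1 nt wide made up 10.8% of sites with a partner (interval 9.16 to 12.6%), 18.1% of those without (interval 15.8 to 20.7%) and 9.70% of AATAAA clusters at 15 to 30 nt (interval 9.44 to 9.95%). Clusters wider than 50 nt made up 3.24% of sites with a partner (interval 2.40 to 4.37%), 12.4% of those without (interval 10.5 to 14.6%) and 3.81% of those in the usual range (interval 3.65 to 3.98%). If distances were counted from 3′ edges or midpoints, a wide cluster is listed farther from its signal. The choice by distance may thus itself favour wide clusters, and this was not tested. The share 1 nt wide was lower with a partner than without (difference over autosomes -8.27 percentage points ± 6.74, negative on 18 of 19, adjusted p = 0.00016, permutation test). It missed the threshold on the minus strand alone (-6.70, adjusted p = 0.0527, permutation test) and at 61 to 80 nt (-4.22, adjusted p = 0.059, permutation test). The median width was 7 nt without a partner and 10 nt at 15 to 30 nt, and the mean log2 width differed by -0.32 ± 0.30 over autosomes (adjusted p = 0.00034, permutation test). That difference was -0.0015 (adjusted p = 0.983, permutation test) without the clusters 1 nt wide, a limit that selects on width itself, and it also missed the threshold on the minus strand alone (-0.30, adjusted p = 0.0555), at 61 to 80 nt (-0.15, adjusted p = 0.273) and among clusters whose preceding identifier was deposited (-0.17, adjusted p = 0.337). On this scale sites with a partner did not differ from those at 15 to 30 nt beyond the spread over autosomes (log2 difference -0.052 ± 0.18, adjusted p = 0.27, permutation test). The 2 ends of the distance range went opposite ways, with a log2 difference of -0.31 at 61 to 80 nt (adjusted p = 0.00036, permutation test) and of 0.17 at 81 to 100 nt (adjusted p = 0.0281, permutation test).

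**Figure D4:**
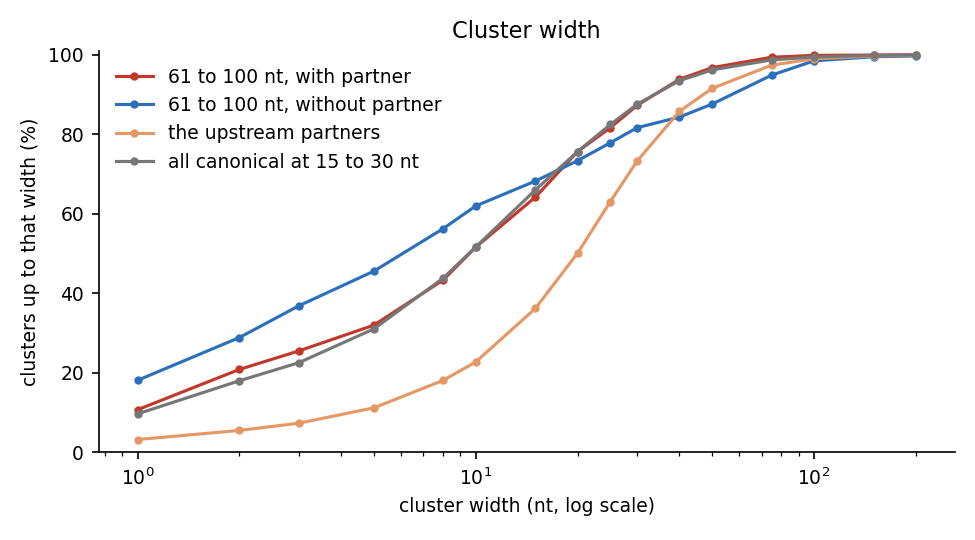
Share of clusters, in percent, up to each width in nt (log scale), for sites at 61 to 100 nt with a partner (red) and without (blue), the upstream partners (orange) and all canonical-signal clusters at 15 to 30 nt (grey). Sites without a partner have most clusters of 1 nt (18.1%) and most wider than 50 nt (12.4%), and the partners are the widest set, with a median of 20 nt.

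The widest sites differed in their surroundings. Among sites without a partner the widest, of 277 nt, was on the minus strand of chromosome 8 at 18845136 to 18845412 (mm9), with AATAAA at 74 nt. Its nearest AATAAA cluster upstream was 75042 nt away, while a cluster of another kind lay 100 nt upstream on the same strand. The next were 265 nt wide on chromosome 12 (minus strand, 92826898 to 92827162), overlapping a cluster on the other strand, and 227 nt wide on chromosome 11 (plus strand, 87257565 to 87257791). Among sites with a partner the widest was 182 nt wide on chromosome 9 (plus strand, 75286962 to 75287143), with the signal at 82 nt, 31 nt downstream of a partner 16 nt wide with the signal at 37 nt. The next were 147 nt wide on chromosome 6 (minus strand, 128752818 to 128752964) and 92 nt wide on chromosome 8 (plus strand, 113581481 to 113581572), with partners of 4 and 26 nt. Genes at these positions were not analysed here, since no annotation of the build was used.

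Sites with a partner had further sites downstream more often than those without. Another cluster on the same strand lay within 1 kb downstream for 56.4% of sites with a partner (interval 53.7 to 59.2%) and for 30.1% of those without (interval 27.3 to 33.1%). The difference over autosomes was 25.4 percentage points (SD 10.6, n = 19) and positive on all 19 (permutation test, adjusted p = 6e-05). Having a partner already places a site among others, so the pairs with a signal each are the closer comparison, and in these the share was 39.3% (interval 36.6 to 42.05%). Sites with a partner exceeded them by 16.5 percentage points ± 9.52, on 19 of 19 (adjusted p = 1.5e-05, permutation test). Sites without a partner stood at 30.1% and AATAAA clusters at 15 to 30 nt at 27.9%, which did not differ beyond the spread (2.19 percentage points ± 8.21, adjusted p = 0.276, permutation test).

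Where sites were joined into runs with gaps of at most 2 kb, 816 of the 1265 sites with a partner (64.5%) lay inside a run and 449 (35.5%, interval 32.9 to 38.2%) were its most downstream site. In the pairs with a signal each the downstream cluster ended its run in 52.01% of cases (interval 49.2 to 54.8%). Of the 976 sites without a partner, 491 (50.3%, interval 47.2 to 53.4%) were alone, against 42.9% (interval 42.4 to 43.3%) of AATAAA clusters at 15 to 30 nt without a partner. The share with no site within 2 kb downstream was 62.9% without a partner and 63.7% for AATAAA clusters at 15 to 30 nt (difference over autosomes -0.919 percentage points ± 8.08, adjusted p = 0.633, permutation test). Most runs that held a distant site held 1 (2135 runs), while 50 held 2 and 2 held 3.

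One of the runs with 3 lay on the plus strand of chromosome 11 (mm9) and had 11 clusters. A cluster from 86936355 to 86936370 had AATAAA at 25 nt, and the distant site from 86936398 to 86936418, 27 nt further, had it at 80 nt. A cluster from 86936469 to 86936502 came next, listed with ACTAAA. A gap of 1447 nt beyond it, a cluster from 86937950 to 86937971 had AATAAA at 14 nt, and the distant site from 86938006 to 86938012, 34 nt further, had it at 70 nt. The run opened with a distant site without a partner, 1 nt wide at 86935494, with AATAAA at 88 nt and no cluster within the preceding 4233 nt. Of the sites without a partner, the 2 farthest from any other cluster were on contig Y_random (plus strand, 19872788 to 19872793), with 937273 nt to the nearest cluster on either strand, and on chromosome 16 (minus strand, 78977275), with 399098 nt.

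Opposite-strand clusters were more frequent near sites with a partner than near those without. Such a cluster lay within 1 kb of 17.9% of sites with a partner (interval 15.9 to 20.2%), 9.84% of those without (interval 8.12 to 11.9%) and 13.0% of AATAAA clusters in the usual range (interval 12.7 to 13.2%). With a partner the share was 8.07 percentage points ± 6.06 higher than without, on 18 of 19 autosomes (adjusted p = 0.000168, permutation test). Here too the pairs with a signal each are the closer comparison. Their downstream clusters stood at 15.0% (interval 13.1 to 17.1%), an interval that overlaps that of sites with a partner, and this difference was not tested. Without a partner it was lower than at 15 to 30 nt (difference -3.14 percentage points ± 4.45, negative on 15 of 19, adjusted p = 0.0115, permutation test). That difference missed the threshold on the minus strand alone (-2.74, adjusted p = 0.221, permutation test) and with partners counted between 3′ edges (-2.38, adjusted p = 0.0596, permutation test). It did so too at 61 to 80 nt (-3.77, adjusted p = 0.059, permutation test), at 81 to 100 nt (-2.68, adjusted p = 0.106, permutation test) and among clusters whose preceding identifier was deposited (-0.840, adjusted p = 0.721, permutation test).

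**Figure D5:**
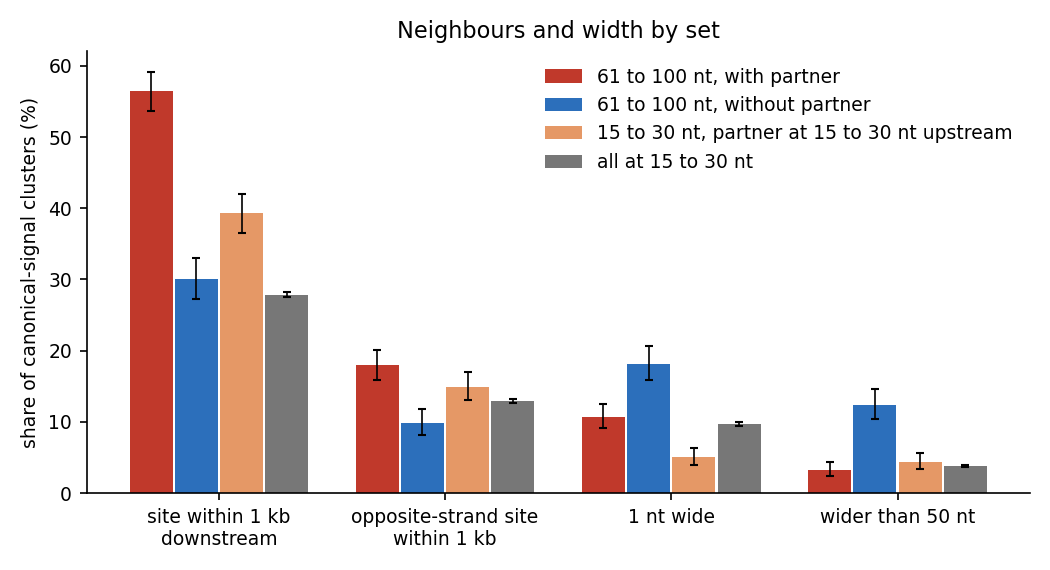
Share of canonical-signal clusters, in percent, with a site within 1 kb downstream, with an opposite-strand site within 1 kb, 1 nt wide, or wider than 50 nt, for sites at 61 to 100 nt with a partner (red) and without (blue), the downstream clusters of pairs with both signals at 15 to 30 nt (orange) and all clusters at 15 to 30 nt (grey), with 95% Wilson intervals as bars. Sites with a partner lead in downstream sites with 56.4%, and sites without one in both extremes of width.

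Clusters just downstream of the distant sites were mostly listed with a hexamer other than AATAAA. Within 100 nt downstream, 268 sites with a partner had a neighbour, of which 72 (26.9%, interval 21.9 to 32.5%) were listed with AATAAA, 162 with another hexamer and 34 (12.7%, interval 9.22 to 17.2%) with none. Of the 98 such neighbours of sites without a partner, 30 had AATAAA, 56 another hexamer and 12 none. Of the 3632 such neighbours of AATAAA clusters at 15 to 30 nt, 2575 (70.9%, interval 69.4 to 72.4%) had AATAAA and 214 (5.89%, interval 5.17 to 6.71%) none. The share with none was 7.18 percentage points ± 9.85 higher beyond sites with a partner, with this sign on 15 of 19 autosomes (permutation test, adjusted p = 0.00588). It missed the threshold within 61 to 80 nt alone (6.68, adjusted p = 0.0551, permutation test) and within 81 to 100 nt alone (5.42, adjusted p = 0.0983, permutation test). The catalogue lists no signal beyond 100 nt. The distant site's AATAAA was certain to lie farther than that from 251 of the 268 neighbours and from 89 of the 98. For AATAAA clusters at 15 to 30 nt it was certain to lie farther from 746 of the 3632 neighbours and within 100 nt of 1207. The choice by distance thus largely sets which neighbours can be listed with that AATAAA. The shares are given as a description, and the test cannot separate this limit from other differences.

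Upstream of the 976 sites without a partner, 42 (4.30%, interval 3.20 to 5.77%) had a cluster of another kind within 100 nt, against 5.43% (interval 5.24 to 5.63%) of AATAAA clusters at 15 to 30 nt without a partner (difference over autosomes -0.904 percentage points ± 2.98, adjusted p = 0.27, permutation test). Of those 42 neighbours, 6 were listed with ATTAAA, 27 with other hexamers and 9 with none. In 14 the distant site's AATAAA lay less than 6 nt upstream of the neighbour or downstream of it, where the catalogue lists no signal. In the other 28 the cluster widths left its place undecided. In 0 of the 42 was AATAAA certain to lie 6 to 100 nt upstream of a neighbour that was listed with something else.

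The catalogue gave a further view of the space before these sites. Its identifiers with a hexamer rise along the genome over both strands and run to 441682, of which 129467 (29.3%) were in the table, and what the other numbers stand for was not tested. Just upstream of sites without a partner the preceding number was missing in 78.3% (interval 75.6 to 80.8%), against 67.1% (interval 66.6 to 67.5%) for AATAAA clusters at 15 to 30 nt without a partner. The difference was 11.2 percentage points ± 5.84 over autosomes, positive on all 19 (adjusted p = 1.5e-05, permutation test). Sites without a partner also had more space before them, with a median of 4886 nt to the preceding listed cluster on either strand, against 2495 nt. With at most 1 kb of such space the number was missing in 49.8% of 233 sites (interval 43.4 to 56.2%), against 36.9% of 16551 clusters (interval 36.2 to 37.6%), and with over 10 kb in 92.7% of 370 sites, against 92.7% of 13208 clusters. Site and partner had consecutive numbers in 1118 of 1265 pairs (88.4%, interval 86.5 to 90.03%), against 86.9% (interval 84.8 to 88.6%) of pairs with a signal each, a difference within the spread (1.51 percentage points ± 6.64, adjusted p = 0.337, permutation test).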

How the data were processed

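Trimmomatic, STAR and bedtools are named, with no versions, in the submitters' processing notes, as is the mm9 build. Rules for joining ends into clusters, and any filter against priming in A-rich RNA, are not stated in those sources; false ends that the authors kept are included. The deposited values, per the file headers, are positions, strands, hexamers and hexamer distances for the series as a whole. Starts were read as counted from 0 and are printed counted from 1. Mitochondrial clusters were left out. Members, sets and tests were chosen with earlier results of these data known, and 6 tests were added after these values were seen.

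Gaps count the bases between cluster edges. Shares have Wilson intervals. For each test, the difference was taken on every autosome and its mean tested by 100000 sign flips (smallest possible p 1e-05), with Benjamini-Hochberg adjustment over the 12 planned tests and over the 6 added ones. Sites were named by position: the 3 widest of each kind, 2 with a partner from the run with most distant sites, and the 2 without a partner farthest from other clusters. Neighbour gaps and the test were checked on simulated data. No genome or annotation of the build was used. The versions were scipy 1.17.1, numpy 2.4.6, matplotlib 3.10.9, pandas 2.3.3 and Python 3.11.15.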

Additional observations from a re-analysis of the deposited data

How the results depend on the processing

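Depth is unknown, and width limits select on a measured value. No paired analysis was possible because the catalogue holds no value per library. Of 176 alternative values with a test, 143 kept their direction and side of the threshold; the 25 others had no test. The differences in downstream sites between distant sites with and without a partner kept both throughout. So did the share of distant sites with an AATAAA partner against the usual range, which the choice by distance largely sets. The number of sites with a partner was 954 with a limit of 50 nt, 1272 with 150 nt, 1231 between 3′ edges and 1255 where the signal spans had to overlap, an alternative added later. With the limit of 50 nt, sites whose partner lay farther upstream were counted among the 1287 without one. The share 1 nt wide could not be computed without clusters of 1 nt. The cause was not tested for any of the changes below.

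The next values are differences in mean log2 width. Sites without a partner minus AATAAA clusters at 15 to 30 nt gave -0.30 on the minus strand, -0.0015 without clusters of 1 nt, -0.15 at distances of 61 to 80 nt and -0.17 among clusters with the preceding identifier deposited, and missed the threshold in all 4. Sites with a partner minus AATAAA clusters at 15 to 30 nt gave 0.026 on the plus strand, 0.11 with partners within 50 nt, -0.13 between 3′ edges, -0.31 at 61 to 80 nt and 0.17 at 81 to 100 nt, past the threshold in the last 4. Sites with a partner minus those without gave 0.16 on the minus strand, -0.022 without clusters of 1 nt, 0.079 between 3′ edges and -0.16 at 61 to 80 nt, all short of it.

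Shares are in percentage points. For clusters 1 nt wide, sites with a partner minus those without gave -6.70 on the minus strand and -4.22 at 61 to 80 nt, both short of the threshold. For opposite-strand sites, without a partner minus 15 to 30 nt gave -2.74 on the minus strand, -2.38 between 3′ edges, -3.77 at 61 to 80 nt, -2.68 at 81 to 100 nt and -0.840 with the preceding identifier deposited, all short of it. For downstream sites within 1 kb the same contrast gave -0.690 with clusters up to 50 nt wide and 6.12 with partners within 50 nt, the second past it. For sites with none within 2 kb downstream it gave 2.02 with clusters up to 50 nt, -4.98 with partners within 50 nt, past it, and 0.251 at 61 to 80 nt. For an upstream cluster of another kind the comparison was with AATAAA clusters at 15 to 30 nt without a partner. The difference was -1.84 with clusters up to 50 nt, -1.80 with partners within 50 nt and -2.89 at 81 to 100 nt, all past the threshold. It was 0.200 at 61 to 80 nt and 2.07 with the preceding identifier deposited, both short of the threshold. AATAAA minus ATTAAA in the share with a partner gave 3.48 at 61 to 80 nt, and signal-less neighbours beyond sites with a partner gave 6.68 at 61 to 80 nt and 5.42 at 81 to 100 nt, all short of it. The share of pairs with signals within 3 nt was 31.6% counted from 5′ edges and 36.8% from midpoints, against 26.3% from 3′ edges.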

Other observations

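All 36 hexamers of the catalogue had clusters at 61 to 100 nt. The share of these with a cluster of the same hexamer within 100 nt upstream was 56.4% for AATAAA, 44.4% for ATTAAA, 30.9% of 957 clusters for TATAAA (interval 28.1 to 33.9%), 27.6% of 337 for CATAAA (interval 23.1 to 32.6%) and 26.1% of 548 for AGTAAA (interval 22.6 to 29.9%). AATGAA reached 16.5% of 430 (interval 13.3 to 20.3%), AAAACA 4.64% of 194 (interval 2.46 to 8.58%) and AACAAA 2.41% of 83 (interval 0.663 to 8.37%). These shares were not adjusted for how common each hexamer was, which ranged widely, with 65222 clusters for AATAAA, 22394 for ATTAAA and 311 for AACAAA. Distant positions took in 3.44% of all AATAAA clusters and 5.52% of all ATTAAA clusters, against 14.9% for TATAAA and 23.9% for AATGAA.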
